A study of Mus musculus with 34 samples.

Results

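The glucocorticoid receptor gene *Nr3c1*, the mineralocorticoid receptor gene *Nr3c2*, the steroid-activating enzyme gene *Hsd11b1*, the receptor cochaperone genes *Fkbp4* and *Fkbp5*, the transcription factor gene *Zbtb16* and the TSC22 family genes *Tsc22d1*, *Tsc22d2*, *Tsc22d3* and *Tsc22d4* were followed in bulk RNA from the mouse dorsal hippocampus. These 10 genes were chosen by symbol, with earlier results of these data known. Their counts beside those of all genes are thus descriptive and no independent evidence. All 10 were among the 54532 genes of the count table and among the 22018 genes expressed highly enough to be tested. After spatial object recognition (SOR) training, 1 of the 10, *Tsc22d3* (which encodes the glucocorticoid-induced leucine zipper protein, GILZ), rose past the threshold used for all genes. *Zbtb16* and *Fkbp4* lay higher and *Nr3c1* lay lower in every SOR library than in every homecage library, but these differences missed the threshold after adjustment over all genes. The groups overlapped for the other 6 genes, among them *Fkbp5*.

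Corticosterone enters cells of the hippocampus and binds receptors that are also transcription factors. The mineralocorticoid receptor binds the hormone more tightly, and the glucocorticoid receptor is occupied mainly when the hormone rises with stress, arousal or the time of day. The unliganded glucocorticoid receptor is held by the chaperone HSP90 together with an immunophilin of the FKBP family, and the bound receptor moves to the nucleus, where it acts on genes near glucocorticoid response elements. Some of the genes it induces feed back on the same pathway, of which *Fkbp5* is the textbook case, and *Tsc22d3* is an induced gene whose protein restrains inflammatory transcription factors.

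The bulk samples were dorsal hippocampi from adult male C57BL/6 J mice, 2 to 3 months old by the study's methods, with 4 homecage libraries and 4 SOR libraries. By the methods, animals were housed alone for 7 days before training. SOR mice were habituated to an open field and trained in 3 sessions with glass objects at fixed places, and tissue was taken 1 h after training. The methods state a matched time of death for homecage mice beside the spatial, single-nucleus and in situ hybridization experiments, without naming the bulk samples. A difference in time of day between the bulk groups was not tested. Homecage mice were not trained, so the effect of being placed in the arena and that of learning the object positions cannot be told apart. Whether each library came from 1 animal is not given in the sources used here, so p-values measure the spread between these libraries. The spatial, single-nucleus RNA and single-nucleus chromatin samples of the series were not analysed here.

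Total estimated counts ran from 51406011 to 81525977 per library, and the 10 genes had between 1157 and 25467 counts in a library. All 9 markers of hippocampal neurons were well detected, at mean CPM (counts scaled to a common library size) of at least 54.8 in homecage libraries. Of the 8 marker lists, covering neurons, oligodendrocytes, astrocytes, microglia, vessel cells, choroid plexus, red blood cells and thalamus, 0 of 50 genes passed an edgeR adjusted p of 0.05, while 8 had an unadjusted p under 0.05 and DESeq2, the likelihood ratio test and voom passed 2, 1 and 0. Choroid plexus transcripts varied most, with summed levels of 24.6 to 1094 CPM in homecage and 40.6 to 4001 CPM in SOR libraries, the highest being SOR replicate 1, and all 6 of its markers had positive fold changes. Summed red blood cell markers ran from 98.6 to 127 CPM in homecage and from 115 to 184 CPM in SOR libraries, with 5 of 5 positive. The 7 oligodendrocyte markers all had negative fold changes, with summed levels of 5141 to 5609 CPM and 4207 to 5511 CPM. The part of these tissue differences in the results was not tested beyond leaving out each library in turn.

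The comparison asked which of the 10 genes differed between SOR and homecage mice. Differences are log2 fold changes of SOR against homecage, from a fit over all tested genes. A gene was called when its adjusted p was under 0.05 and its fold change over 1.4. In bulk tissue, a change in RNA per cell and a change in the number of cells that express a gene cannot be told apart. The count of 1 called gene in 10 stood beside 0.150% of all tested genes called higher, and that same gene was the 1 member past the adjusted p alone, beside 0.309% of all genes. An unadjusted p under 0.05 was found for 4 of the 10, beside 10.1% of all genes. Every SOR library lay above every homecage library for 3 of the 10, beside 2.98% of all genes, and below for 1 of the 10, beside 3.96%. Fold changes were above 0 for 7 of the 10, beside 43.8% of all genes, whose median was −0.019 on the log2 scale.

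**Figure D1:**
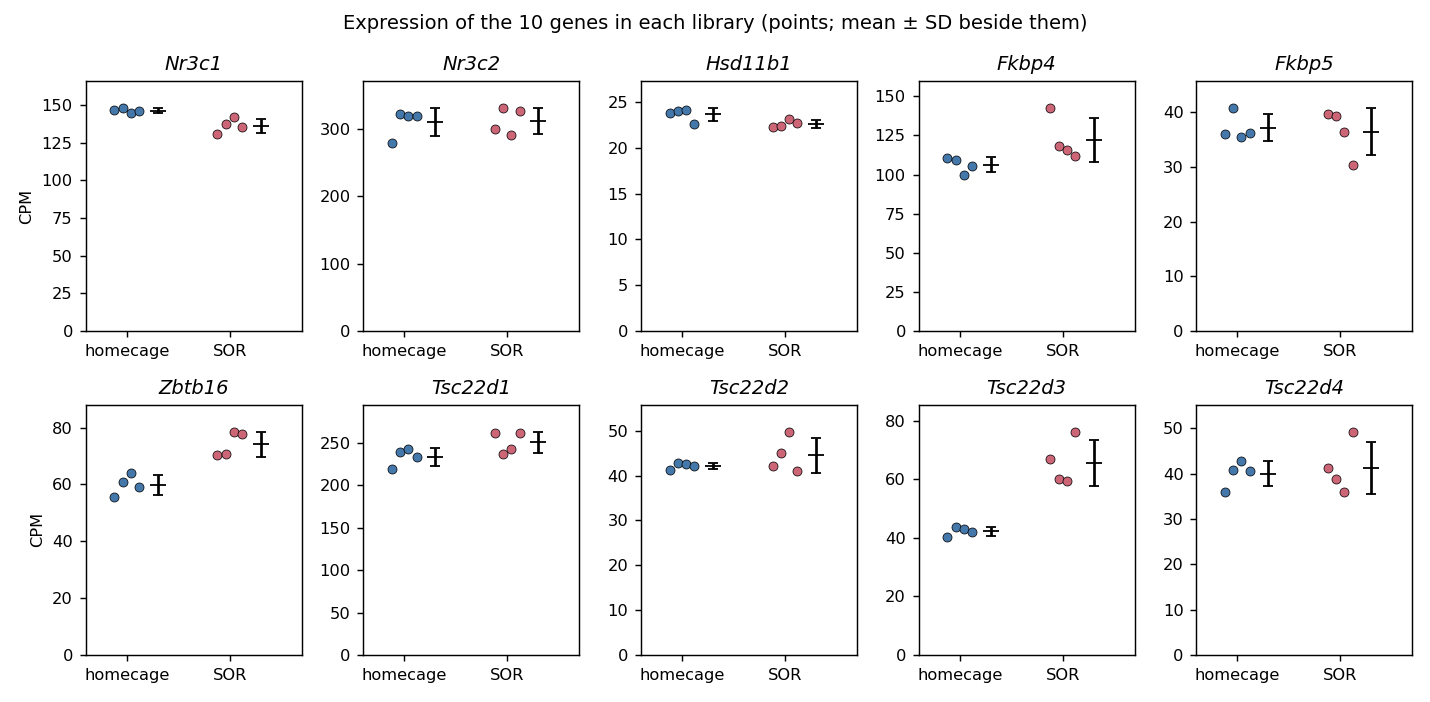
Expression of each of the 10 genes in CPM (vertical axis, starting at 0) in the 4 homecage and 4 SOR libraries; points are libraries in the order of their replicate numbers, and the bars beside them are the mean ± SD. The groups are apart for Tsc22d3, Zbtb16 and Fkbp4 (SOR higher) and for Nr3c1 (SOR lower), and overlap for the other 6 genes.

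*Nr3c1* (ENSMUSG00000024431; chr18:39410545-39519421 of the mouse build mm10, minus strand) encodes the glucocorticoid receptor itself. Its level was 146, 148, 144 and 146 CPM in homecage and 131, 138, 142 and 135 CPM in SOR libraries. Homecage libraries were within a narrow band, and all SOR libraries lay just below it. The log2 fold change was −0.10 (standard error 0.036, 95% interval −0.18 to −0.023), with an edgeR adjusted p of 0.365 and an exact permutation p of 0.0286. Receptor mRNA in SOR libraries was 0.931 times its homecage level, from 146 ± 1.49 to 136 ± 4.64 CPM (SD, n = 4 each), a difference that was not significant after adjustment over all genes.

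*Nr3c2*, which encodes the mineralocorticoid receptor (ENSMUSG00000031618; chr8:76899442-77245012, plus strand), did not differ detectably. It had 279, 322, 319 and 319.6 CPM in homecage and 299, 331, 291 and 326 CPM in SOR libraries, and the groups overlapped. Its log2 fold change was 0.0080 (95% interval −0.12 to 0.14) with an edgeR adjusted p of 0.982, and its sign turned when homecage replicate 1 was left out (−0.037). The opposite-strand gene *Gm10649* shares 247 exon bases with *Nr3c2* and had at most 284 counts in a library, small beside the *Nr3c2* counts. The ratio of *Nr3c2* to *Nr3c1* counts was 2.12 ± 0.14 in homecage and 2.29 ± 0.17 in SOR libraries, with an exact permutation p of 0.2 before and after adjustment over the 6 ratios.

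*Hsd11b1* encodes the reductase that regenerates active corticosterone inside cells (ENSMUSG00000016194; chr1:193221634-193264075, minus strand). It had 23.7, 24.0, 24.2 and 22.6 CPM in homecage and 22.2, 22.3, 23.1 and 22.7 CPM in SOR libraries. The SOR libraries fell within or just under the homecage range, and the log2 fold change was −0.064 (95% interval −0.18 to 0.049) with an edgeR adjusted p of 0.738. *Hsd11b1* counts were 0.162 ± 0.0053 times those of *Nr3c1* in homecage and 0.166 ± 0.0039 times in SOR libraries, with an exact permutation p of 0.171 and 0.2 after adjustment.

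The cochaperones *Fkbp4* and *Fkbp5* encode FKBP52, which favours hormone binding and nuclear transport of the receptor, and FKBP51, which opposes them. *Fkbp4* (ENSMUSG00000030357; chr6:128429735-128438677, minus strand) had 111, 109.5, 99.9 and 105 CPM in homecage and 143, 118, 116 and 112 CPM in SOR libraries. All SOR libraries were above the homecage ones, but SOR replicate 4 by a small margin, and SOR replicate 1 stood apart at the top. The log2 fold change was 0.20 (standard error 0.072, 95% interval 0.040 to 0.36), with an edgeR adjusted p of 0.385 and an exact permutation p of 0.0286. Without SOR replicate 1 it was 0.11, with an edgeR adjusted p of 0.478. That library held the most choroid plexus transcript and also the highest summed level of other chaperones of the receptor complex. The part of either in the *Fkbp4* difference was not tested. *Fkbp4* passed an adjusted p of 0.05 in 2 of 13 other fits, those with 2 or 3 estimated nuisance factors.

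*Fkbp5* (ENSMUSG00000024222; chr17:28399094-28517527, minus strand) had 36.0, 40.8, 35.5 and 36.3 CPM in homecage and 39.7, 39.3, 36.5 and 30.3 CPM in SOR libraries. SOR libraries included the lowest of all 8, and 3 of the 4 lay inside the homecage range. The log2 fold change was −0.026 (standard error 0.085, 95% interval −0.21 to 0.16), with an edgeR adjusted p of 0.953. The interval's upper bound of 0.16 lies below 0.47, the lower bound for *Tsc22d3*. The sign turned to 0.049 without SOR replicate 4 and to 0.023 without homecage replicate 2. The ratio of *Fkbp5* to *Fkbp4* counts was 0.349 ± 0.020 in homecage and 0.299 ± 0.029 in SOR libraries (SD, n = 4 each), with an exact permutation p of 0.0571 and 0.0857 after adjustment over the 6 ratios.

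Matches to the full palindromic glucocorticoid response element, GAACANNNTGTTC, were found at 4 places within the 10 genes and 10000 bases on either side, 2 of them in *Fkbp5*, and are shown because the receptor binds DNA at this sequence. All 4 lay in introns. Each is given with 6 bases on each side, on the strand of the gene, with the element in capitals, at chr17:28442414-28442438 and chr17:28420316-28420340 for *Fkbp5*, chr8:77201994-77202018 for *Nr3c2* and chr14:76478170-76478194 for *Tsc22d1*.
Fkbp5 element nearer the gene start: gtttgaGAACAGCTTGTTCtaggct
Fkbp5 element farther from the gene start: cattcaGAACAGGGTGTTCtgtgct
Nr3c2 element: tccacaGAACAGAATGTTCgattta
Tsc22d1 element: agatgtGAACAGTTTGTTCtccata
The *Fkbp5* elements lay 75101 and 97199 bases into the gene, counted from its outermost annotated start. Of genome windows as long as *Fkbp5* with its flanks, 16.5% held at least 1 element and 1.5% held at least 2. For the lengths of *Nr3c2* and *Tsc22d1*, 37.7% and 13.7% of windows held at least 1. The other 7 genes had 0 matches. A match of letters is not a site of binding, and looser forms of the element were not searched.

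RefSeq promoter windows (GRCm38.p6, of which the 250 bases before the start were searched) were held for 6 of the 10 genes. Heat shock factor letters GAANNTTC occurred before the start of *Fkbp4* and *Nr3c2*, and in 6.69% of all windows. The *Fkbp4* stretch is shown because heat shock factor is a known activator of genes of the HSP90 machinery. It lies at chr6:128438760-128438847 and is printed on the minus strand, with the match in capitals, 151 bases before the start.
Fkbp4 promoter stretch: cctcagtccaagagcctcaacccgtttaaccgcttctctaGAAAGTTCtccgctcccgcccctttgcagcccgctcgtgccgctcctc
The *Fkbp5* window, at chr17:28486100-28486399, lay inside the annotated gene, downstream of its outermost start. The E-box CACGTG was present in the *Fkbp5* window and in 1 of the 5 windows of *Tsc22d1*, against 6.02% of all windows. The full cAMP response element TGACGTCA was in 0 windows of the members and in 1.55% of all windows. Its shorter form TGACG, read on either strand, was in a window of *Tsc22d3*, a window of *Tsc22d1* and the *Fkbp4* window, and in 17.8% of all windows.

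*Tsc22d3* rose by more than any other of the 10. Its level was 40.3, 43.7, 43.0 and 41.9 CPM in homecage replicates 1 to 4 and 66.8, 60.1, 59.2 and 76.3 CPM in SOR replicates 1 to 4. The lowest SOR library stood well above the highest homecage library, and the SOR libraries were more spread than the homecage ones. The means were 42.2 ± 1.52 CPM and 65.6 ± 7.87 CPM (SD, n = 4 each), a fold change of 1.55. The log2 fold change was 0.63 with a standard error of 0.076 and a 95% interval of 0.47 to 0.80, and the edgeR quasi-likelihood adjusted p was 0.00553, which ranked 22 of 22018 genes. An exact two-sided permutation test of the log2 CPM gave p = 0.0286, the smallest that 4 against 4 libraries can give. Without SOR replicate 4, the highest library, the log2 fold change was 0.55 with an edgeR adjusted p of 0.00505, and without SOR replicate 1, the library richest in choroid plexus transcripts, it was 0.62 with an adjusted p of 0.0161. A test against a minimum fold change of 1.4, in place of against no change, did not call it.

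*Tsc22d3* (ENSMUSG00000031431) lies on the minus strand at chrX:140539528-140600659 and has 6 annotated transcripts. Its RefSeq promoter windows start at 3 places in the gene. Of these, the window at its upstream end held the hexamer TGTTCT, 185 bases before the start. The hexamer is 1 arm of the glucocorticoid response element, TGTTC, with 1 further base. That stretch is shown, with the hexamer in capitals, because this is the gene that rose. It lies at chrX:140600662-140600747, outside the annotated transcripts, and is printed on the minus strand.
Tsc22d3 promoter stretch: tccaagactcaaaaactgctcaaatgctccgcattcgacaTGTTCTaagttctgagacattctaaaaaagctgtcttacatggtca
The hexamer, read on either strand (TGTTCT or AGAACA), occurred in the 250 bases before the start in 16.1% of 32851 RefSeq promoter windows, 1 of the 5 of *Tsc22d1* among them, so its presence here is a description and not evidence of binding. The full palindrome GAACANNNTGTTC occurred in 0.04% of these windows and in 0 windows of the 10 genes. It was also not found in the body of *Tsc22d3* or the 10000 bases on either side, where 9.98% of genome windows of that length hold it.

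The other TSC22 genes differed from homecage by less. They encode proteins with the same leucine zipper type and, in their long forms, partners of the kinase-like NRBP proteins. *Tsc22d1*, the founding member (ENSMUSG00000022010; chr14:76414961-76507765, plus strand), had 219, 240.0, 243 and 233 CPM in homecage and 261, 237, 242 and 262 CPM in SOR libraries. SOR replicates 1 and 4 were above all homecage libraries and the others lay among them, giving a log2 fold change of 0.10 (95% interval −0.0056 to 0.21) and an edgeR adjusted p of 0.518. *Tsc22d2* (ENSMUSG00000027806; chr3:58414715-58466783, plus strand) had a log2 fold change of 0.077 with an edgeR adjusted p of 0.733, and SOR replicate 3, at 49.8 CPM, was its highest library, while the others ran from 41.0 to 45.1 CPM. Without SOR replicate 3 its log2 fold change was 0.018, with an edgeR adjusted p of 0.923. *Tsc22d4* (ENSMUSG00000029723; chr5:137745730-137768450, plus strand) had a log2 fold change of 0.044 with an edgeR adjusted p of 0.915, and SOR libraries, at 35.9 to 49.3 CPM, enclosed the homecage libraries, at 36.0 to 42.8 CPM. The upper interval bounds of 0.21 for *Tsc22d2* and 0.25 for *Tsc22d4* lay below the lower bound of 0.47 for *Tsc22d3*.

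Ratios within a library, which do not depend on how libraries are scaled, set *Tsc22d3* against its relatives. *Tsc22d3* counts were 1.06 ± 0.049 times those of *Tsc22d4* in homecage and 1.59 ± 0.051 times in SOR libraries. The ratio to *Tsc22d2* went from 1.001 ± 0.020 to 1.49 ± 0.30, and that to *Tsc22d1* from 0.181 ± 0.0029 to 0.261 ± 0.021 (SD, n = 4 each). All 4 SOR libraries lay above all 4 homecage libraries in each of these ratios. Each gave an exact permutation p of 0.0286, the smallest possible, and 0.0571 after Benjamini-Hochberg adjustment over the 6 ratios computed, so none passes 0.05 after adjustment. With p already at its smallest, a wider separation in these ratios could not have lowered that value. The ratios share the *Tsc22d3* counts and are not separate results.

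**Figure D2:**
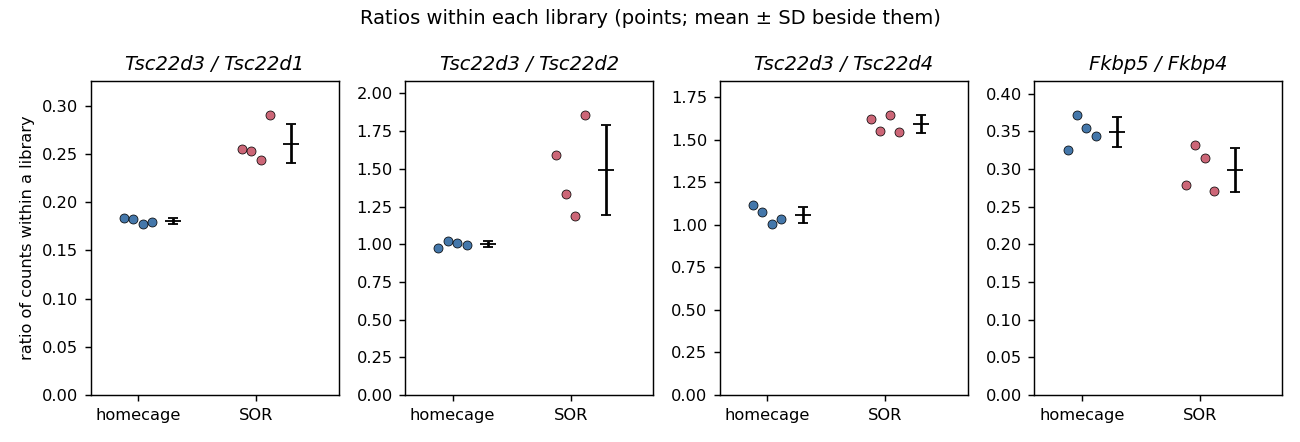
Ratio of the counts of 2 genes within each library (vertical axes, starting at 0), for homecage and SOR libraries; points are libraries and the bars beside them the mean ± SD. The ratios of Tsc22d3 to Tsc22d1, Tsc22d2 and Tsc22d4 are higher in all SOR libraries, whereas the ratio of Fkbp5 to Fkbp4 overlaps between groups.

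*Zbtb16* encodes PLZF, a zinc finger transcription factor that glucocorticoids induce in several cell types. It had 55.5, 60.9, 64.0 and 59.1 CPM in homecage and 70.2, 70.6, 78.3 and 77.7 CPM in SOR libraries. Every SOR library lay above every homecage library. The means of 59.9 ± 3.57 CPM and 74.2 ± 4.39 CPM (SD, n = 4 each) gave a log2 fold change of 0.31 (standard error 0.056, 95% interval 0.19 to 0.43), a fold of 1.24. The edgeR adjusted p was 0.0579, which misses 0.05, and the exact permutation p was 0.0286. The gene passed 0.05 under 8 of 13 other fits with all libraries, where the adjusted p ran from 2.86e-06 to 0.0738, and in 0 of 8 fits without 1 library, where it ran from 0.0628 to 0.199. *Zbtb16* (ENSMUSG00000066687) lies at chr9:48654297-48836222 on the minus strand and is not among the RefSeq promoter windows used.

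**Figure D3:**
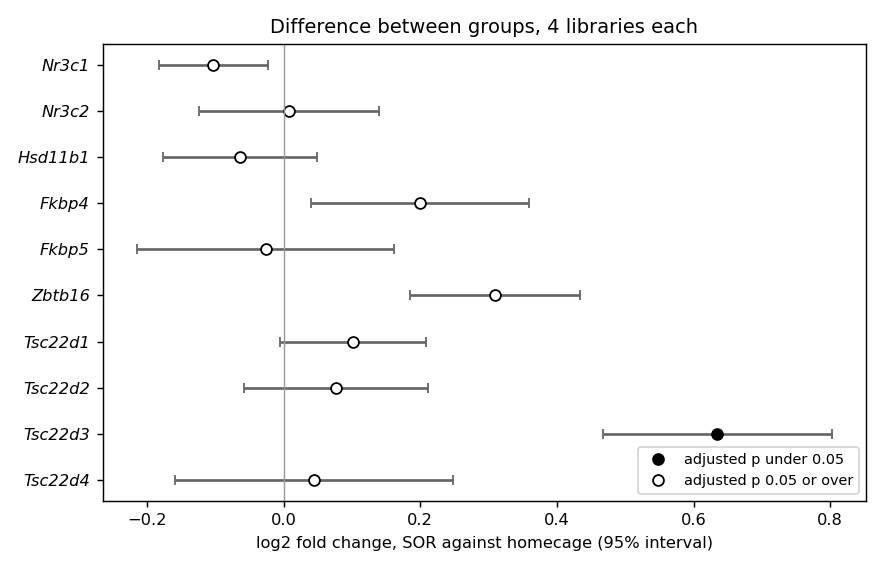
Log2 fold change of SOR against homecage (horizontal axis) with its 95% interval for each gene; filled points have an edgeR adjusted p under 0.05. Tsc22d3 is filled at 0.63, and the intervals of Zbtb16, Fkbp4 and Nr3c1 also leave out 0 before adjustment for the number of genes tested.

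To compare levels between genes, CPM were divided by the length of the exons of each gene in kilobases. On this scale of CPM per kilobase the order in homecage libraries was *Nr3c2* at 47.9, *Fkbp4* at 38.1, *Tsc22d1* at 26.0, *Nr3c1* at 19.0, *Zbtb16* at 11.3, *Tsc22d3* at 9.73, *Hsd11b1* at 5.56, *Tsc22d4* at 5.33, *Fkbp5* at 3.92 and *Tsc22d2* at 3.75. Neighbours in this order did not overlap between libraries except *Hsd11b1* with *Tsc22d4* and *Fkbp5* with *Tsc22d2*. Mineralocorticoid receptor mRNA was thus the most abundant of the 10 per length, and the 2 cochaperones lay far apart. In SOR libraries *Tsc22d3*, at 15.1 ± 1.81, had a higher mean than *Zbtb16*, at 14.05 ± 0.83, but the ranges of 13.6 to 17.6 and 13.3 to 14.8 overlapped. These levels assume that all annotated exons are used alike.

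**Figure D4:**
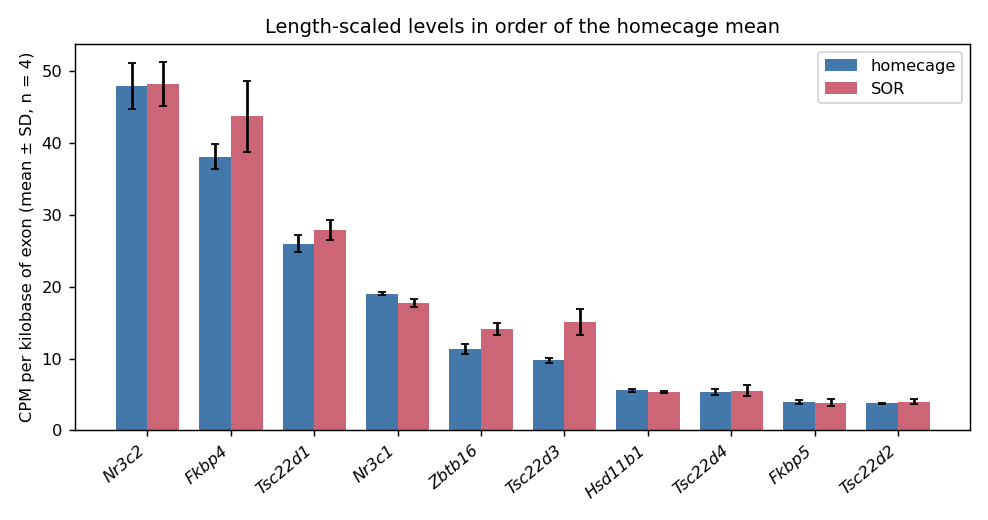
Mean CPM per kilobase of annotated exon (vertical axis, bars starting at 0; error bars SD, n = 4) for homecage and SOR libraries, in the order of the homecage mean. Nr3c2 is highest at 47.9 in homecage; the mean of Tsc22d3 is 9.73 in homecage and 15.1 in SOR libraries, and that of Fkbp4 is 38.1 and 43.7.

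Other genes of the pathway were taken from 6 lists. All 6 were drawn up with earlier results of these data known, so their counts beside all genes are descriptive. Of 16 chaperones and cochaperones of the receptor complex, 1 rose and 0 fell, beside 0.309% of all genes past the adjusted p. The gene that rose was *Dnajb1*, a heat-inducible HSP40, at 23.8 ± 2.02 CPM in homecage and 40.7 ± 9.17 CPM in SOR libraries (SD, n = 4 each), with a log2 fold change of 0.77 and an edgeR adjusted p of 0.0445. The count for this list was 0 in 7 of 8 fits without 1 library (all but that without SOR replicate 1) and also 0 with voom and with library size scaling, 2 with DESeq2 or 1 RUVs nuisance factor, and 4 with 2 or 3 such factors. The HSP90 genes had log2 fold changes of 0.12 (*Hsp90aa1*, edgeR adjusted p 0.755) and 0.073 (*Hsp90ab1*, edgeR adjusted p 0.701), and the list's median was 0.079. In this list 5 of the 16 genes, *Dnajb1* among them, had an unadjusted edgeR p under 0.05, beside 10.1% of all genes. Every SOR library lay above every homecage library for 5 of the 16, beside 2.98% of all genes, and below for 1, beside 3.96%. Summed levels of the list ran from 6644 to 7034 CPM in homecage and from 7132 to 8769 CPM in SOR libraries. The highest was SOR replicate 1.

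Receptor coregulators numbered 13, of which 0 passed the adjusted p in the edgeR fit as reported, by DESeq2 or by voom. An unadjusted edgeR p under 0.05 was found for 0 of them, and the median log2 fold change was 0.039. Fold changes were above 0 for 13 of the 13, beside 43.8% of all genes. This count was 11 without homecage replicate 1 or without SOR replicate 2. With 2 or 3 RUVs factors, and in the fit without SOR replicate 1, 1 coregulator was higher past the adjusted p. Of 6 genes of corticosteroid metabolism and transport, 4 were tested and 0 passed in the edgeR fit as reported, by DESeq2 or by voom. With 2 or 3 RUVs factors, 1 of these genes was lower past the adjusted p. An unadjusted edgeR p under 0.05 was found for 1 of the 4, beside 10.1% of all genes. Every SOR library lay below every homecage library for 2 of the 4, beside 3.96% of all genes. Fold changes were above 0 for 0 of the 4, beside 43.8% of all genes, with a median log2 fold change of −0.30. With TMM scaling 1 of the 4 was above 0. *H6pd*, which supplies the cofactor for the *Hsd11b1* enzyme, had a log2 fold change of −0.44 with an edgeR adjusted p of 0.608. *Hsd11b2*, whose enzyme inactivates corticosterone, had at most 9.04 counts in a library and was not tested. Neither the 7 partners of TSC22 proteins nor the 11 other FKBP immunophilins held a gene past the adjusted p or an unadjusted p of 0.05 by edgeR, nor past the adjusted p by DESeq2 or voom, with medians of −0.032 and 0.032.

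Of 26 other glucocorticoid-responsive genes, listed with earlier results of these data known and so no independent evidence of direction, 25 were tested, 5 rose and 0 fell, beside 0.309% of all genes past the adjusted p. *Sgk1*, which encodes a kinase that regulates ion channels, averaged 54.6 ± 6.67 CPM without training and 139 ± 16.5 CPM after it, and rose by 1.35 on the log2 scale (edgeR adjusted p 0.000378). The lipid droplet gene *Plin4* rose by 1.60 on the log2 scale (edgeR adjusted p 0.00105), and *Nfkbia*, the inhibitor of NF-κB, by 0.80 (edgeR adjusted p 0.00239). *Errfi1*, a feedback inhibitor of EGF receptors, rose by 0.56 and the transcription factor gene *Klf15* by 0.57, with edgeR adjusted p of 0.00477 and 0.0142. The clock gene *Per1*, at 0.62, had an edgeR adjusted p of 0.176. Fold changes were above 0 for 24 of the 25, beside 43.8% of all genes, and every SOR library was above every homecage library for 16, beside 2.98% of all genes, with a median log2 fold change of 0.42 against −0.019 for all genes.

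**Figure D5:**
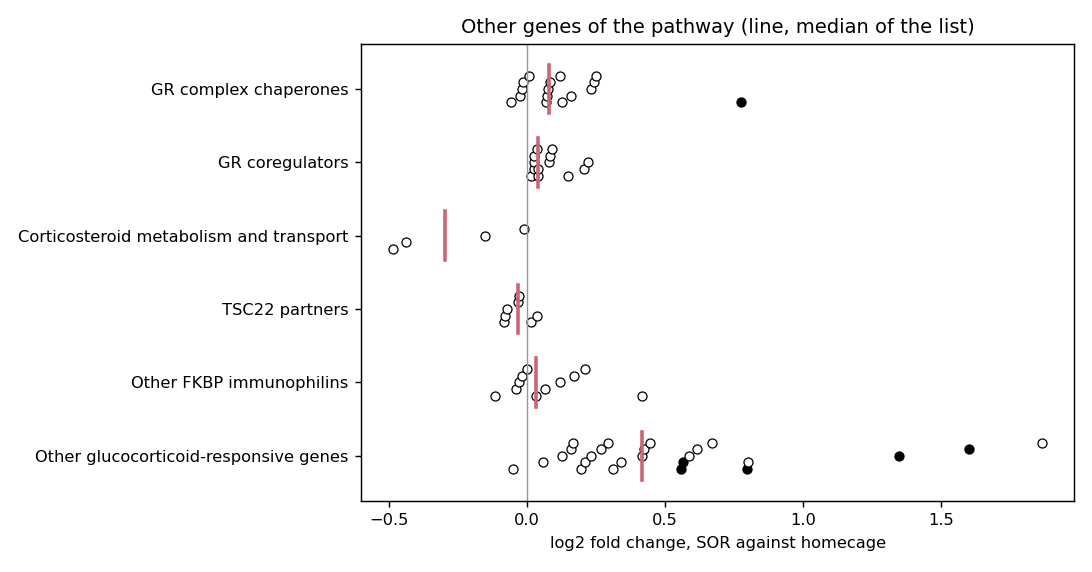
Log2 fold change of SOR against homecage (horizontal axis) for each tested gene of the 6 lists (rows; GR, glucocorticoid receptor); filled points have an edgeR adjusted p under 0.05 and red lines are list medians. Filled points are Dnajb1 among the chaperones and 5 of the 25 other glucocorticoid-responsive genes, whose median is 0.42.

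The genes whose log2 CPM followed *Tsc22d3* most closely over the 8 libraries, among 16351 genes compared, were *Mfsd2a* (Pearson r 0.989), *Tiparp* (0.983) and *Plekhf1* (0.980). For *Nr3c1* they were *Zcchc18* (0.986), *8430429K09Rik* (0.984) and *Grm3* (0.977). These coefficients describe 8 libraries that share both the group difference and the library scaling, and the highest of so many values are high by selection.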

How the data were processed

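Bulk dorsal hippocampus RNA was sequenced by the authors as stranded, ribosomal RNA-depleted libraries (150-base paired reads; the labels say polyA RNA). Their methods name bcbio-nextgen, STAR and featureCounts, and the deposited table holds estimated counts per gene from tximport, whose quantifier is not given in the sources used here; 52.6% of values were not whole. The labels name the build mm10. Counts were rounded here, genes filtered with filterByExpr, libraries scaled by upper quartile, and groups compared with edgeR 4.0.16 (quasi-likelihood F test, Benjamini-Hochberg adjustment over 22018 genes) in R 4.3.3. CPM used these scaled library sizes, and log2 CPM a prior of 1 count. DESeq2 1.42.0, limma 3.58.1 (voom), a reimplementation of RUVs with 1 to 3 factors (the study's number is not given), other scalings and filters were alternatives. Exact permutation tests enumerated 70 assignments. Groups and replicates came from the labels' titles. Positions and exon lengths came from GENCODE M21, which matched 54495 of 54532 genes, and sequences from RefSeq's GRCm38.p6, whose promoter windows held 6 of the 10 genes: *Nr3c2*, *Tsc22d1*, *Tsc22d3*, *Fkbp4*, *Fkbp5* and *Hsd11b1*. No 2 libraries of a group agreed within sampling noise (chi-square per degree of freedom 11.1 to 49.2 over 12 pairs), so none was treated as a duplicate deposit; this does not show that they came from separate animals. The members, lists and tests were chosen with earlier results of these data known. Named genes were all members, list genes past the adjusted p, 6 taken for their place in the pathway (*Hsp90aa1*, *Hsp90ab1*, *Hsd11b2*, *H6pd*, *Sgk1* and *Per1*), and the 3 genes most like *Tsc22d3* and *Nr3c1*.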

Additional observations from a re-analysis of the deposited data

Results flagged for a closer look

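Of the 20 groups of 4 libraries tested (10 genes in 2 groups), 2 held a library far from the others, where chance gives about 1 in 20. *Nr3c2* was 279.2 CPM in homecage replicate 1, while the other homecage libraries had 318.9 to 322.4 CPM, so the gap was 0.918 of the range. *Fkbp5* was 40.78 CPM in homecage replicate 2, while the others had 35.48 to 36.26 CPM, a gap of 0.853 of the range. Both lie in genes that did not pass the adjusted p, and leaving out either library turned the sign of its gene's log2 fold change.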

How the results depend on the processing

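The call of *Tsc22d3* held in all 13 other fits with all libraries (log2 fold change 0.62 to 0.66, adjusted p 1.06e-27 to 0.0369) and in all 8 fits without 1 library (0.55 to 0.68, adjusted p 0.00505 to 0.0338), and was lost when the edgeR test required a minimum fold of 1.4, which called 0 members and 8 of all genes, where the fit as reported called 38. Members past the adjusted p numbered 2 with TMM or RLE scaling, no filter, the likelihood ratio test, DESeq2 or 1 RUVs factor, and 3 with 2 or 3 factors. The added members were *Zbtb16*, at 0.33 (TMM), 0.33 (RLE), 0.31 (no filter), 0.31 (likelihood ratio), 0.33 (DESeq2) and 0.32, 0.32 and 0.32 (1, 2 and 3 factors), and *Fkbp4*, at 0.17 and 0.17 (2 and 3 factors). Calls over all genes were 105 with the likelihood ratio test, 112 with DESeq2, 134, 191 and 203 with 1, 2 and 3 factors, 68 by adjusted p alone, and 22 to 38 without 1 library, of which 22 and 25 were without homecage replicates 2 and 4. Signs turned without 1 library for *Nr3c2* (−0.037 to 0.040), *Tsc22d4* (−0.054 to 0.11) and *Fkbp5* (−0.071 to 0.049). TMM scaling moved the median of all genes by 0.020. Same-numbered libraries of the 2 groups did not deviate together (r −0.0833 to 0.0585 over 4 pairs, others −0.185 to 0.192), so the fit as reported did not pair them. A weak pairing, or one that touched few genes, would not be seen this way. With a replicate block, 30 genes and 1 member were called, and *Tsc22d3* had 0.63 with adjusted p 0.0369. Chosen after seeing the data, the same fits counted 5 to 16 of the other glucocorticoid-responsive genes as higher with all libraries, and 4 or 5 without 1 library, 5 of them without SOR replicate 1. Depth left *Hsd11b2*, with at most 9.04 counts in a library, untested. The causes of these differences were not tested.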
